A study of Homo sapiens with 65 samples.

Results

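The early hyaluronidase course comprised 6 of the 65 RNA sequencing libraries of a study on human left-ventricular cardioids. The 6 libraries were chosen by their labels: 3 cardioid libraries exposed to hyaluronidase from day 1.5 to collection on day 4.5, and 3 exposed from day 1.5 to collection on day 7.5. Each day held 1 library of each of the lines named TNNI1, WT and TNNT2 in the sample titles. The days were therefore compared within lines, and the names TNNI1 and TNNT2 mean lines, not genes, wherever the word line stands before them. The question was whether differentiation that lagged on day 4.5 had caught up by day 7.5 or was still behind.

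Cardioids are aggregates of pluripotent stem cells that are guided through mesoderm to beating heart-like tissue. All libraries came from WTC-11, an induced pluripotent stem cell line, and every group carried the WT genotype label. Mesoderm was induced from day 0 with FGF2, LY294002, Activin A, BMP4 and CHIR99021. The cells were reseeded as aggregates on day 1.5 and then received patterning media with BMP4, FGF2, insulin, C59 and retinoic acid, followed by a cardiomyocyte medium. The labels call day 4.5 the cardiac progenitor stage and day 7.5 the cardiomyocyte stage. The comparison groups were the untreated course on days 4.5 and 7.5 and a late hyaluronidase course that began on day 2.5, each with 1 library per line and day. Each library pooled 8 cardioids, the enzyme's dose is not given in the sources used here, and an enzyme-free vehicle group was not used here.

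Hyaluronan is a long sugar polymer of the extracellular matrix, made at the plasma membrane by hyaluronan synthases and cut by hyaluronidases. In the embryonic heart it fills the cardiac jelly between myocardium and endocardium, where it binds water and carries link proteins and proteoglycans. Cardiomyocytes leave the progenitor state by switching on transcription factors such as TBX5 and NKX2-5, then the myosins, actins, troponins and titin that build sarcomeres, and the channels and pumps that couple excitation to contraction. In bulk RNA a lower level can mean fewer cells of a type or less RNA per cell, and these cannot be told apart here.

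Expression was measured by counting 3′ end reads per gene. The 6 libraries held 1157056 to 1718211 counted reads on day 4.5 and 1226967 to 1434595 on day 7.5, and the untreated libraries held 1120719 to 1567012. Levels are given as CPM, the reads of a gene scaled to 1000000 reads of its library, always in the order of lines TNNI1, WT, TNNT2 where 3 values stand together. The day 4.5 enzyme libraries differed most between lines TNNI1 and WT (chi-square per degree of freedom 11.3, against 6.74 and 6.08 for their pairs with line TNNT2), and their summed sarcomere levels were 7814, 25710.0 and 13070.0 CPM. On day 7.5 the enzyme library of line TNNT2 stood apart, at 12.7 from line TNNI1 and 12.2 from line WT, against 4.42 between these lines. Untreated libraries of day 7.5 reached 16.4 between lines WT and TNNT2. The mitochondrially encoded share was 0.411% to 0.552% in the day 4.5 enzyme libraries and 0.426% to 1.11% on day 7.5, against 0.902% to 2.39% in untreated libraries of day 7.5. Its part in the results was not tested. The heart markers TNNT2 and NKX2-5 were detected in all 6 libraries. A list of 8 pluripotency and neural markers summed to 179.8 to 217.8 CPM on day 4.5 and 18.8 to 27.3 CPM on day 7.5. Most of each sum was LIN28A, whose values are given near the end. Of the 8 markers, 3 had no read with enzyme on day 4.5 and 6 had none on day 7.5.

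The promoters of 4 genes are shown because these genes stand for the contractile genes that rose, a stretch-linked gene that stayed low and the mitotic genes that fell. They are the 250 bases before and 50 bases after the annotated transcription start from RefSeq, build GRCh38.p14, written 5′ to 3′ on the gene's strand. MYL7, the atrial regulatory myosin light chain, has its promoter at chr7:44141283-44141582 (minus strand). MYOM1, the M-band protein myomesin 1, has its promoter at chr18:3219919-3220218 (minus strand). ANKRD1, a stretch-responsive titin-binding protein, has its promoter at chr10:90921038-90921337 (minus strand). CCNB2, a cyclin of mitotic entry, has its promoter at chr15:59104896-59105195 (plus strand). Capitals mark GGAATG, the letters of a TEAD site, or a CArG box, the serum response factor element, in the first 3. They mark CCAAT or TTTGAA, letters found in promoters of cell-cycle genes, in CCNB2.
MYL7: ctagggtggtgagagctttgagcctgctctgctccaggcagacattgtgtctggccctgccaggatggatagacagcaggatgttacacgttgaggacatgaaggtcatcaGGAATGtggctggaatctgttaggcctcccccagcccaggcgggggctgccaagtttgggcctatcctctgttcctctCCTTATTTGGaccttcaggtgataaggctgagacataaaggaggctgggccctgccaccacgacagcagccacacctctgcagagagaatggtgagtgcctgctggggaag
MYOM1: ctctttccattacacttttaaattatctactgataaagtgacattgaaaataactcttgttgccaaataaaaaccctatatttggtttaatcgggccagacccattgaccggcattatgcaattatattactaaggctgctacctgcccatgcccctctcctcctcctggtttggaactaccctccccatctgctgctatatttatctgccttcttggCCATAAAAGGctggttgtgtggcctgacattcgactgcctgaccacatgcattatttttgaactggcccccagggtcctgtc
ANKRD1: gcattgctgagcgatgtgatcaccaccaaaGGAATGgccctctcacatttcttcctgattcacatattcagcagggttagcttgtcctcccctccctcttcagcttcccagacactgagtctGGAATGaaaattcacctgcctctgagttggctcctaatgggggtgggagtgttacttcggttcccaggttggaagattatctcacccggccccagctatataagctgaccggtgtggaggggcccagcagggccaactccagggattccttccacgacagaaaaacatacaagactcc
CCNB2: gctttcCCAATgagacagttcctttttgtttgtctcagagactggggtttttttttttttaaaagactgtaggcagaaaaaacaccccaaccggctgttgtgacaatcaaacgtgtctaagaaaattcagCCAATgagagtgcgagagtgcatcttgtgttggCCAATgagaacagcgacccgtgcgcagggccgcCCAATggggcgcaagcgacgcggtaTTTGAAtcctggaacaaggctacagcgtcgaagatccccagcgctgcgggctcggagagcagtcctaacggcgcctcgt
Both strands were searched in each window. GGAATG was present in 14.0% of all 35116 promoters of the table, CArG in 1.29%, CCAAT in 34.6% and TTTGAA in 15.2%. Among 17 sarcomere promoters matched by symbol, 4 (23.5%) held GGAATG and 4 (23.5%) held a CArG box. Of 9 promoters of natriuretic and stretch-linked genes, 5 (55.6%) held GGAATG and 2 (22.2%) a CArG box. Of 17 promoters of mitosis and S phase genes, 14 (82.4%) held CCAAT, 7 (41.2%) TTTGAA and none a CArG box. A match describes the letters of the window and is not a measured binding site.

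Contractile genes rose with enzyme between day 4.5 and day 7.5. Of 24 tested sarcomere genes, 19 rose and none fell (edgeR quasi-likelihood test with line as a block, Benjamini-Hochberg adjusted p below 0.05). Over all 12748 genes tested, 5.16% rose and 4.34% fell in the same comparison, that is 658 and 553 genes, or 9.5% in all. The median log2 change of the sarcomere list was 2.37, against 0.0056 over all genes. In untreated cardioids, 7 of the 24 rose between the same days, with a median of 1.31, beside 4.34% of all genes that rose and 8.1% that were called in either direction. The enzyme count was 14 without the day 4.5 library of line TNNI1, 12 without that of line TNNT2 and 6 without line TNNT2 altogether. The untreated count was 2 without the day 4.5 library of line WT or of line TNNT2, 2 without the day 7.5 library of line TNNT2, 4 without the day 7.5 library of line TNNI1 and 4 without the line block. It was 1 without line TNNT2 altogether. It rose to 14 without line TNNI1 (enzyme count 15) and to 16 when only the compared libraries were fitted (enzyme count 19). With no filter on low counts it was 20 (enzyme count 22).

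MYL7 (ENSG00000106631; chromosome 7, 44138864 to 44141332, minus strand) stood at 16.8, 44.9 and 15.1 CPM on day 4.5 with enzyme and at 639.8, 810.4 and 1784 CPM on day 7.5. Untreated cardioids held 4688, 1409 and 1590.5 CPM on day 4.5 and 6648, 8168 and 13105 CPM on day 7.5. The enzyme libraries were below the untreated ones on each day without overlap, and on day 7.5 the enzyme library of line TNNT2 alone exceeded the lowest untreated value of day 4.5. The rise with enzyme was 5.49 ± 0.84 on the log2 scale (SE, adjusted p = 0.0007032, edgeR), and the remaining difference on day 7.5 was -3.23 ± 0.71 (adjusted p = 0.01519).

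MYL3 (chromosome 3, 46857872 to 46882169, minus strand), the ventricular essential light chain, stood at 6.21, 5.19 and 1.75 CPM on day 4.5 and at 496, 380.4 and 1187 CPM on day 7.5 with enzyme. The untreated values were 1384, 229 and 337 CPM and then 3497, 2182 and 4361 CPM. Its rise of 7.52 ± 0.98 on the log2 scale (adjusted p = 0.000218, edgeR) put lines WT and TNNT2 above their own untreated libraries of day 4.5. Line TNNI1 stayed below its own, at 496 against 1384 CPM. On day 7.5 the groups did not overlap, but the difference of -2.37 ± 0.67 did not pass (adjusted p = 0.05853). The gene overlaps PTH1R on the other strand, and the strand setting of the counting is not given in the sources used here.

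MYOM1 (chromosome 18, 3066807 to 3220108, minus strand) stood at 7.45, 21.6 and 8.15 CPM and then at 434, 359.5 and 829 CPM with enzyme. Untreated libraries held 678, 205 and 209 CPM and then 1358, 1190.2 and 2664 CPM. The rise was 5.56 ± 0.60 with enzyme (adjusted p = 2.634e-05) and 2.46 ± 0.48 without it (adjusted p = 0.005203), both on the log2 scale (edgeR). The enzyme libraries of day 7.5 lay below all untreated libraries of that day, with a difference of -1.81 ± 0.46 (adjusted p = 0.02973).

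**Figure D1:**
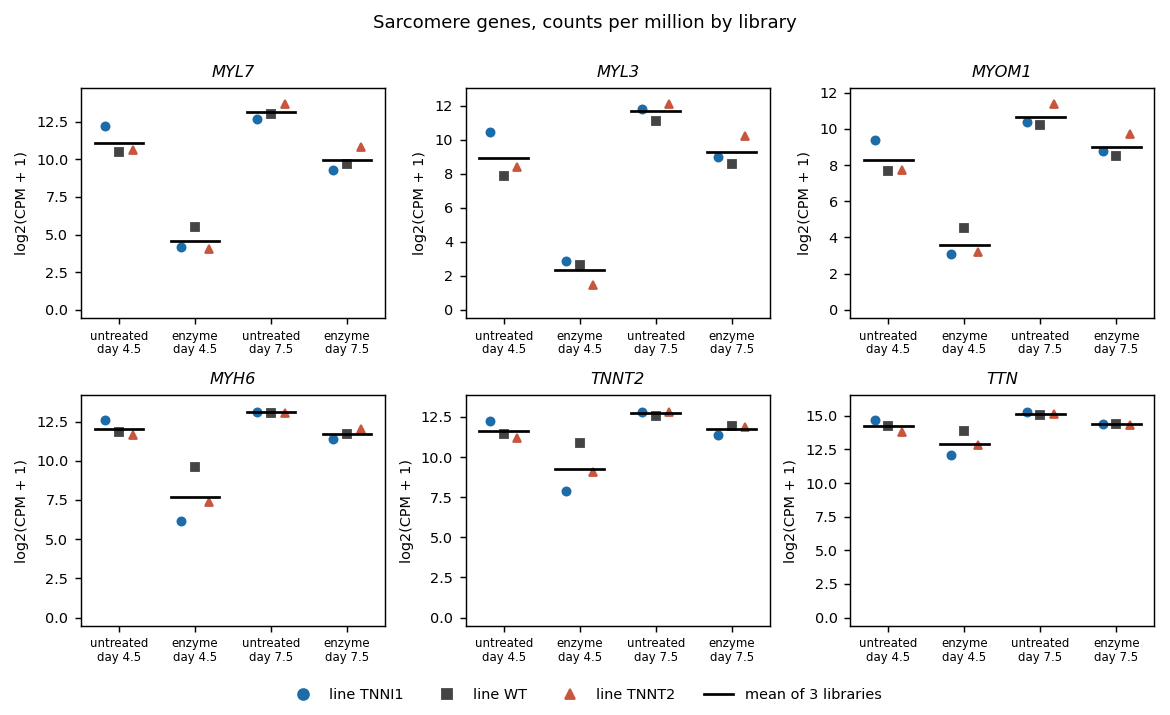
Levels of 6 sarcomere genes in each library, as log2(CPM + 1) on the y axis, for untreated and enzyme-treated cardioids on days 4.5 and 7.5. Points are single libraries by line and bars are means of 3; in each panel the mean of the day 4.5 enzyme libraries is the lowest, and that of day 7.5 lies between it and the untreated mean of day 7.5.

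The spring protein and the troponin of the thin filament rose as well. TTN, titin, stood at 4406, 14638 and 7171 CPM on day 4.5 and at 21653, 21705 and 20330.0 CPM on day 7.5 with enzyme, a rise of 1.36 ± 0.32 (adjusted p = 0.008499, edgeR). TNNT2, cardiac troponin T, stood at 237, 1866 and 544 CPM and then at 2676, 3997 and 3774 CPM, a rise of 2.16 ± 0.52 (adjusted p = 0.01365). Untreated libraries of day 7.5 held 40392, 33430.0 and 35998 CPM of TTN and 7240.0, 6067 and 7189 CPM of TNNT2, all above the enzyme libraries. Those differences on day 7.5, -0.90 ± 0.31 for TTN and -1.11 ± 0.50 for TNNT2, did not pass (adjusted p = 0.1183 and 0.2473). The line with the most TTN and TNNT2 on day 4.5 with enzyme was WT, and the line with the least was TNNI1.

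Both myosin heavy chains of the heart rose. MYH6, the alpha chain, stood at 69.5, 770.1 and 162 CPM and then at 2719.7, 3288 and 4105 CPM with enzyme, a rise of 3.58 ± 0.72 (adjusted p = 0.006268, edgeR). Untreated libraries held 8905, 8566 and 8414 CPM on day 7.5, without overlap, and the difference of -1.44 ± 0.64 did not pass (adjusted p = 0.2585). MYH7, the beta chain, had 3 reads in all on day 4.5 with enzyme (0.621, 0 and 1.16 CPM) and reached 18.7, 6.47 and 32.8 CPM, a count ratio of 29.2 with an exact counting interval of 9.62 to 144.4 (adjusted p = 9.913e-05). Untreated cardioids of day 7.5 held 123, 85.5 and 189 CPM of MYH7, so the difference stayed at -2.99 ± 0.37 (adjusted p = 5.857e-05). MYL2, the ventricular regulatory light chain, had no read in any library of day 4.5 and too few on day 7.5 to be tested.

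MYBPC3, the thick-filament regulator myosin-binding protein C, had the smallest difference from untreated on day 7.5 among the sarcomere genes whose values are given here. It stood at 23.6, 120.1 and 47.1 CPM and then at 552, 488 and 549 CPM with enzyme (3.17 ± 0.44, adjusted p = 0.0002058, edgeR), against 541, 812 and 820.5 CPM untreated on day 7.5. The ranges overlapped there, and the difference was -0.58 ± 0.39 (adjusted p = 0.4707). TNNC1, the calcium sensor troponin C, rose from 7.45, 16.4 and 11.1 CPM to 180.1, 104 and 219.6 CPM, and untreated cardioids held 884, 743 and 1089.8 CPM (difference on day 7.5 -2.59 ± 0.48, adjusted p = 0.004411). LMOD2, a thin-filament elongation factor, did not pass in the step (8.69, 16.4 and 5.24 CPM to 9.78, 10.8 and 11.8 CPM), while untreated cardioids of day 7.5 held 75, 51.1 and 85.3 CPM. The other 4 tested members outside the call were TPM1, ACTC1, MYOZ2 and TCAP.

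On day 4.5 the enzyme had left 20 of 24 sarcomere genes lower than untreated and none higher, with a median log2 difference of -2.96, beside 3.1% of all genes lower and 4.59% called in either direction. On day 7.5, 10 of 24 were lower and none higher, with a median of -1.77, beside 2.49% of all genes lower and 4.42% called in either direction. These 10 were MYH7, MYL7, TNNC1, TPM1, ACTN2, MYOM1, MYOZ2, TCAP, LMOD2 and XIRP1. The count on day 4.5 was 14 without the enzyme library of line TNNI1, 10 without that of line TNNT2, 11 without the untreated library of line TNNI1 and 6 when only the compared libraries were fitted. The count on day 7.5 was 4 without the enzyme library of line TNNI1, 5 without that of line WT, 5 without the untreated library of line TNNT2, 20 with no filter and 21 when only the compared libraries were fitted. The order of the counts of the days was therefore the opposite in fits of only the compared libraries, 6 and then 21. Without line TNNT2 altogether, the count was 6 on day 4.5 and 1 on day 7.5.

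The sarcomere list of day 7.5 enzyme cardioids lay near that of untreated cardioids of day 4.5. None of the 24 genes passed in either direction in that comparison, and their median difference was -0.20. Over all genes, 325 (2.55%) were higher and 410 (3.22%) lower with enzyme on day 7.5 than untreated on day 4.5, 5.77% in all. Summed sarcomere levels were 41530.0, 42880.0 and 46990.0 CPM with enzyme on day 7.5 and 65610.0, 41620.0 and 35370.0 CPM untreated on day 4.5, which overlap. A p that misses the threshold does not show equal levels, and 3 of the genes passed as lower with no filter on low counts and 1 when only the compared libraries were fitted.

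Genes of calcium handling and excitation rose in part. Of 16 tested, 7 rose and 1 fell with enzyme between the days, with a median log2 change of 0.82, against 2 that rose untreated (CACNA1C and JPH2) with a median of 0.68. Over all genes, 5.16% rose and 4.34% fell with enzyme, and 4.34% rose untreated. The 7 were RYR2, the calcium release channel of the sarcoplasmic reticulum, TRDN and HRC beside it, JPH2, which ties it to the surface membrane, the sodium-calcium exchanger SLC8A1, the L-type channel CACNA1D and POPDC2. SLC8A1 stood at 19.2, 188 and 43.1 CPM and then at 283, 519 and 419 CPM (2.49 ± 0.53, adjusted p = 0.006248, edgeR), below the untreated 1359.8, 1352 and 1207 CPM of day 7.5. CACNA1D went from 13, 107 and 30.8 CPM to 193, 275 and 186 CPM (2.35 ± 0.43, adjusted p = 0.002215), in a range that overlaps the untreated 141, 190.2 and 152 CPM of day 7.5. The gap junction gene GJA1 fell from 105, 41.5 and 48.9 CPM to 24.5, 6.47 and 24.4 CPM (-1.74 ± 0.39, adjusted p = 0.005669).

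On day 4.5, 9 of the 16 calcium and excitation genes were lower with enzyme, and on day 7.5, 4 were, with medians of -1.55 and -0.87. Over all genes, 3.1% and 2.49% were lower on these days. The 4 were ATP2A2, the pump that refills the sarcoplasmic reticulum, CACNA1C, CAMK2D and POPDC2. ATP2A2 stood at 210.3, 237 and 239 CPM with enzyme and 419, 488 and 516 CPM untreated on day 7.5, a difference of -1.17 ± 0.21 (adjusted p = 0.001441, edgeR) without overlap. The count of 7 risers was 5 without the day 4.5 enzyme library of line TNNI1 and 4 without that of line TNNT2, and the count of 4 on day 7.5 was 2 without the enzyme library of line TNNI1 and 7 with no filter. The count of 9 on day 4.5 was 5 without the enzyme library of line TNNI1, 3 without that of line TNNT2 and 3 without the untreated library of line TNNI1. Fits of only the compared libraries gave 5 on day 4.5 and 7 on day 7.5. Without line TNNT2 altogether the count of risers was 1, and the counts of lower genes were 2 on day 4.5 and 0 on day 7.5.

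Natriuretic peptides and some stretch-linked genes stayed below untreated cardioids, although the list rose with enzyme between the days. Of 12 tested, 3 rose and none fell, beside 5.16% of all genes that rose. The median log2 change was 1.21, or 0.84 with genes at 0 set to their bound, against 0.62 untreated. Summed levels went from 88.75, 109.8 and 79.15 CPM to 492.3, 365.3 and 463.5 CPM with enzyme. Untreated libraries of day 7.5 held 1813, 2507 and 2759 CPM. On day 4.5, 8 were lower than untreated, beside 3.1% of all genes. On day 7.5, 5 were lower (NPPA, NPPB, ANKRD1, AMOTL2 and CRYAB) and 1, THBS1, was higher, beside 2.49% and 1.93% of all genes. The median log2 difference on day 7.5 was -2.08, and -2.07 with genes at 0 set to the bound that 3 reads per library allow. Against untreated cardioids of day 4.5, 5 were lower too (NPPA, NPPB, ANKRD1, AMOTL2 and CCN2), with a median of -1.68, beside 3.22% of all genes lower.

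NPPA (chromosome 1, 11845709 to 11848345, minus strand), the atrial natriuretic peptide, had no read in the enzyme libraries of day 4.5 and 2.45, 0.719 and 0.697 CPM on day 7.5. Untreated cardioids held 107, 1.78 and 6.26 CPM and then 327, 72.1 and 399 CPM, so the groups did not overlap on either day. The enzyme level was at least 18.6-fold lower on day 4.5, a bound carried by line TNNI1 (1.85-fold without it), and on day 7.5 the difference was -8.45 ± 0.89 on the log2 scale (adjusted p = 3.901e-05, edgeR). Against untreated day 4.5 the difference of the enzyme libraries of day 7.5 was -4.42 ± 1.00 (adjusted p = 0.01279). NPPB, the B-type peptide, had no read in any of the 6 enzyme libraries and 0, 10.2 and 18.5 CPM untreated on day 7.5, at least 4.30-fold lower with enzyme (adjusted p = 0.04385, edgeR), or 6.77-fold without line TNNI1 and 2.22-fold without line TNNT2. That call was lost in 5 of the 6 fits without 1 of these libraries and in the fit without the line block (adjusted p = 0.089).

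ANKRD1 (chromosome 10, 90912096 to 90921276, minus strand) stood at 32.9, 0.864 and 5.82 CPM and then at 40.8, 13.7 and 5.58 CPM with enzyme, a change of 0.74 ± 1.11 that did not pass (adjusted p = 0.758, edgeR). Untreated cardioids held 429, 318 and 372 CPM and then 369, 1630.5 and 1283 CPM, above every enzyme library. The difference was -5.24 ± 1.02 on day 4.5 (adjusted p = 0.007793) and -6.51 ± 1.04 on day 7.5 (adjusted p = 0.002003). The day 7.5 call was lost when only the compared libraries were fitted (-5.80, adjusted p = 0.2017) and without line TNNT2. AMOTL2, a junction protein and target of YAP, was likewise below untreated on both days: 14.3, 14.7 and 14.6 CPM and then 10.6, 14.4 and 8.36 CPM with enzyme, against 29.4, 47.2 and 49.7 CPM untreated on day 7.5 (-2.05 ± 0.40, adjusted p = 0.003132).

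Other members of the list rose. FHL2, a LIM protein of the sarcomere, went from 6.83, 5.19 and 2.33 CPM to 78.2, 99.2 and 95.5 CPM with enzyme (4.44 ± 0.52, adjusted p = 2.634e-05, edgeR). HSPB7, a small heat shock protein of heart muscle, went from 18.6, 39.8 and 29.7 CPM to 242, 182 and 289 CPM (3.06 ± 0.54, adjusted p = 0.002264). THBS1, the matrix protein thrombospondin 1, reached 97.8, 28.8 and 50.9 CPM with enzyme, above the 11.6, 14 and 14.1 CPM of untreated cardioids on day 7.5 (2.07 ± 0.48, adjusted p = 0.01468). The count of 5 lower genes on day 7.5 was 3 in each fit without an enzyme library of line TNNI1 or WT or an untreated library of line WT or TNNT2, 3 without the line block and 8 with no filter. The count of 8 on day 4.5 was 3 without the enzyme library of line TNNI1 or of line TNNT2. It was 4 without the untreated library of either line or when only the compared libraries were fitted. Without line TNNT2 altogether the counts were 2 on day 7.5, 2 on day 4.5 and 0 against untreated day 4.5. The count of 5 against untreated day 4.5 was 2 without the enzyme library of line TNNI1 or TNNT2 or the untreated library of line TNNT2 or when only the compared libraries were fitted, and 3 without the enzyme library of line WT or the untreated library of line TNNI1.

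TAGLN and CAVIN1, a cytoskeletal smooth muscle gene and a caveolar coat gene, were also low on day 7.5. TAGLN stood at 8.69, 6.91 and 9.89 CPM and then at 13.9, 15.8 and 10.5 CPM with enzyme, against 41, 261 and 164 CPM untreated on day 7.5 (-3.61 ± 0.45, adjusted p = 4.663e-05, edgeR). CAVIN1 stood at 4.34, 0.864 and 1.75 CPM and then at 4.08, 0 and 2.79 CPM with enzyme. Untreated cardioids rose from 6.82, 7.99 and 13.2 CPM to 40.2, 75.3 and 151 CPM of CAVIN1 (3.32 ± 0.68, adjusted p = 0.005416), which left a difference of -5.33 ± 0.82 on day 7.5 (adjusted p = 0.0005372). TAGLN overlaps PCSK7 on the other strand.

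**Figure D2:**
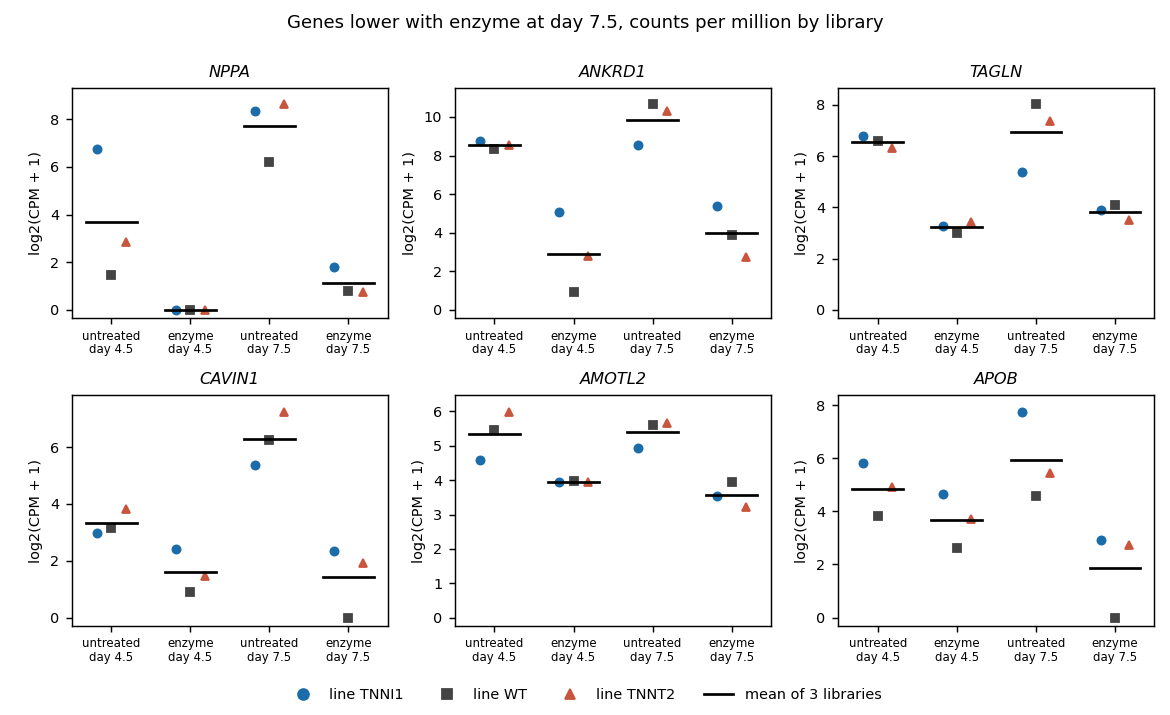
Levels of 6 genes that were lower with enzyme on day 7.5, as log2(CPM + 1) on the y axis, in each library of the untreated and enzyme-treated courses. Points are libraries by line and bars are means of 3; the enzyme libraries of day 7.5 lie below all untreated libraries of that day in each panel, for example 5.58 to 40.8 CPM of ANKRD1 against 369 to 1630.5 CPM.

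Proliferation genes fell with enzyme between the days. Of 20 tested genes of mitosis and S phase, 17 fell and none rose, with a median log2 change of -1.89, beside 4.34% of all genes that fell. Untreated, 2 of the 20 fell (CCNB2 and PLK1), with a median of -0.49, beside 3.77% of all genes that fell. MKI67, the proliferation antigen, stood at 648, 146 and 352 CPM and then at 59.5, 74.8 and 145 CPM with enzyme (-1.88 ± 0.39, adjusted p = 0.003972, edgeR). In untreated cardioids MKI67 stood at 240.2, 325 and 391 CPM and then at 349.8, 172 and 176 CPM, which did not pass (adjusted p = 0.5487). On day 4.5 the enzyme library of line TNNI1 held the most MKI67 and that of line WT the least, on either side of the untreated range. Without the library of line TNNI1 the count was 14 of 20 and the median -1.39, without that line altogether the count was 5, and when only the compared libraries were fitted it was 11. The untreated count of 2 was 0 without the day 4.5 or the day 7.5 library of line TNNT2, 1 without the day 4.5 library of line WT or the day 7.5 library of line TNNI1 and 4 without the day 7.5 library of line WT. It was 5 with DESeq2, 5 when only the compared libraries were fitted and 7 with no filter.

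CCNB2 (chromosome 15, 59105078 to 59125045, plus strand) stood at 73.9, 42.3 and 68.7 CPM on day 4.5 and at 7.34, 1.44 and 1.39 CPM on day 7.5 with enzyme, a change of -4.12 ± 0.43 on the log2 scale (adjusted p = 3.035e-06, edgeR). In untreated cardioids it also fell, from 37.5, 44.4 and 59.8 CPM to 18.7, 17.9 and 6.68 CPM (-1.58 ± 0.35, adjusted p = 0.007552). The difference between the steps was -2.54 ± 0.58 (adjusted p = 0.07768) and did not pass. MCM3, a subunit of the replicative helicase, fell from 171, 83.8 and 119 CPM to 53.8, 59.7 and 57.9 CPM (-1.02 ± 0.19, adjusted p = 0.001214), below the untreated 120.5, 91.9 and 97.2 CPM. CENPF and TYMS also fell, and AURKA, MCM5 and PCNA were the tested members that did not pass.

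On day 4.5 none of the 20 mitosis and S phase genes passed between enzyme and untreated cardioids, and their median difference was 0.14. The lines went in different directions there. Their mean log2 CPM was 6.82, 5.26 and 6.30 with enzyme and 5.89, 6.21 and 6.41 untreated. On day 7.5, 9 were lower with enzyme and none higher, with a median of -1.33: MKI67, CCNB1, CCNB2, CCNA2, BUB1, CENPF, TPX2, MCM3 and TYMS. Over all genes, 2.49% were lower on that day. The list then summed to 591.7, 698.9 and 1225 CPM in the early course and 712.1, 844.2 and 976.4 CPM in the late course. Untreated libraries of day 7.5 held 2481, 1585 and 1530 CPM. Against untreated cardioids of day 4.5, 17 were lower in enzyme cardioids of day 7.5, with a median of -1.85, beside 3.22% of all genes. The count of 9 was 4 without the enzyme or the untreated library of line TNNI1 of day 7.5. Without line TNNT2 altogether the count of 9 was 1 and the count of 17 was 6. Without line TNNI1 altogether they were 2 and 11. The count of 17 was 9 without the day 7.5 enzyme library of line TNNI1 and 11 without the untreated day 4.5 library of line TNNT2.

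**Figure D3:**
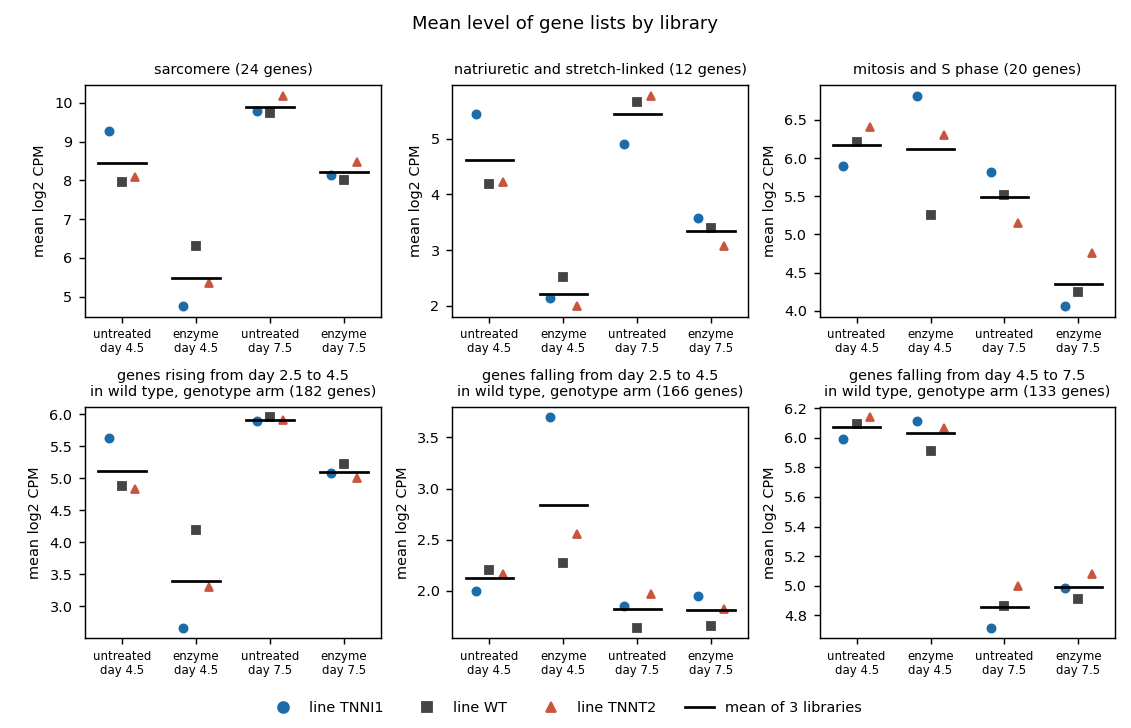
Mean log2 CPM of 6 gene lists in each library of the untreated and enzyme-treated courses on days 4.5 and 7.5. Points are libraries by line and bars are means of 3; sarcomere means with enzyme went from 4.76 to 6.31 on day 4.5 to 8.02 to 8.48 on day 7.5, while mitosis means went from 5.26 to 6.82 down to 4.06 to 4.75.

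Few cardiac transcription factors were called between the days. Of 20 tested, 1 rose and 1 fell with enzyme (TBX2 and HAND2), near the 9.5% of all genes, and their median log2 change was 0.11. Untreated, 3 rose (HEY2, IRX4 and PROX1) and 2 fell (GATA4 and ISL1), beside 8.1% of all genes called in either direction. NKX2-5, an early cardiac homeobox factor, stood at 181, 351 and 276 CPM and then at 428, 410 and 639 CPM with enzyme, and the change did not pass (adjusted p = 0.14, edgeR). On day 7.5 its enzyme range overlapped the untreated 814, 297 and 453 CPM.

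On day 7.5, 4 of the 20 factors were below untreated, among them TBX5, HEY2 and IRX4, beside 2.49% of all genes. TBX5, a factor of the first heart field and left ventricle, stood at 51.5, 109.8 and 41.9 CPM and then at 61.1, 139 and 107 CPM with enzyme, against 247, 211 and 286 CPM untreated on day 7.5 (-1.44 ± 0.28, adjusted p = 0.003214, edgeR). HEY2, a Notch target of ventricular muscle, stood at 21.2, 17.3 and 21.6 CPM against 149, 38.3 and 57.9 CPM (-1.94 ± 0.42, adjusted p = 0.007093). IRX4, a ventricular factor, stood at 3.26, 42.4 and 2.09 CPM against 153, 106 and 28.9 CPM (-2.96 ± 0.71, adjusted p = 0.02146). The IRX4 ranges overlapped across lines, with line WT highest among the enzyme libraries, and the ranges of TBX5 and HEY2 did not.

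HAND2 and ISL1, factors of cardiac progenitors, were above untreated on both days. HAND2 stood at 781, 629 and 1150.0 CPM and then at 469, 274 and 379 CPM with enzyme, a fall (-1.06 ± 0.31, adjusted p = 0.03144, edgeR) that left it above the untreated 86.6, 101 and 142 CPM of day 7.5 (1.67 ± 0.32, adjusted p = 0.003747). ISL1 stood at 306, 203 and 449.9 CPM and then at 182, 54.6 and 137 CPM with enzyme, against 45.7, 73.7 and 96.7 CPM and then 2.68, 28.1 and 23.7 CPM untreated. The ISL1 difference was 2.09 ± 0.45 on day 4.5 (adjusted p = 0.01048) and 2.68 ± 0.51 on day 7.5 (adjusted p = 0.004411), and its ranges did not overlap on either day.

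Of 13 tested genes of early and cardiac mesoderm, 4 fell with enzyme between the days (LHX1, EOMES, PDGFRA and APLNR) and 1 rose (MIXL1). Over all genes, 4.34% fell and 5.16% rose in that step. Untreated, 2 of the 13 fell and none rose, beside 3.77% of all genes that fell. With enzyme, 3 were higher than untreated on day 4.5 and 2 on day 7.5, and none lower. Over all genes, 1.49% and 1.93% were higher on these days. LHX1, a homeobox factor of early mesoderm, stood at 1627, 189 and 899.8 CPM and then at 362, 149.6 and 468 CPM with enzyme (-1.20 ± 0.37, adjusted p = 0.04833, edgeR). Untreated cardioids held 152, 62.2 and 68.8 CPM and then 27.7, 8.93 and 17.1 CPM. The difference between enzyme and untreated was 2.96 ± 0.40 on day 4.5 (adjusted p = 0.0002257) and 4.08 ± 0.46 on day 7.5 (adjusted p = 3.778e-05), and the enzyme libraries of day 7.5 were also above untreated day 4.5 (1.76 ± 0.39, adjusted p = 0.009114). EOMES, a T-box factor of the primitive streak, stood at 68.3, 0.864 and 11.1 CPM on day 4.5 with enzyme, highest in line TNNI1, and at 4.08, 0 and 1.39 CPM on day 7.5 (-3.53 ± 0.83, adjusted p = 0.009599). PDGFRA, a receptor of cardiac mesoderm, fell from 250.1, 445 and 271 CPM to 80.7, 128 and 71.8 CPM (-1.69 ± 0.24, adjusted p = 8.28e-05).

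Genes of hyaluronan itself were read in the same libraries. HAS2, the main hyaluronan synthase of the heart, stood at 893, 862 and 711 CPM and then at 507, 406 and 483 CPM with enzyme, and the change of -0.72 ± 0.28 did not pass (adjusted p = 0.1108, edgeR). On day 4.5 it was above the untreated 459, 398 and 331 CPM (0.97 ± 0.28, adjusted p = 0.04641), and on day 7.5 the difference of 0.59 from 339, 251 and 269 CPM did not pass (adjusted p = 0.2617), although the ranges did not overlap. HMMR, a hyaluronan-binding protein that is also a mitotic gene, fell (-2.10 ± 0.38, adjusted p = 0.0008532). Of 8 tested genes of the hyaluronan list, 2 fell with enzyme between the days, HMMR and HAPLN1, and none rose, beside 4.34% of all genes that fell. Untreated, 2 of the 8 fell and 1 rose, beside 3.77% of all genes that fell and 4.34% that rose.

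HAPLN1 (chromosome 5, 83637805 to 83721613, minus strand), the link protein that fastens proteoglycans to hyaluronan, stood at 1113, 1008 and 1619 CPM and then at 766, 558 and 474 CPM with enzyme. Untreated cardioids held 427, 504 and 636 CPM and then 75, 70.2 and 76.4 CPM. The fall was -0.93 ± 0.20 with enzyme (adjusted p = 0.00381) and -2.69 ± 0.22 untreated (adjusted p = 3.104e-08, edgeR), so that on day 7.5 the enzyme libraries stood 2.92 ± 0.22 higher on the log2 scale (adjusted p = 1.666e-08). The matrix protein FN1, fibronectin, stood at 3569, 7618 and 7364 CPM and then 4832, 4501 and 3732 CPM with enzyme, against 2551, 5004 and 4104 CPM and then 452, 1272 and 850.2 CPM untreated. FN1 fell untreated (-2.09 ± 0.30, adjusted p = 0.0002544) and was higher with enzyme on day 7.5 (2.36 ± 0.31, adjusted p = 7.092e-05), but the difference between its steps did not pass (adjusted p = 0.08161).

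Of 19 tested genes of basement membrane and matrix, 5 rose with enzyme between the days (COL18A1, LAMA4, HSPG2, COL3A1 and COL6A1) and none fell. Untreated, 4 rose (COL4A2, HSPG2, LAMA4 and LAMB1) and 7 fell. Over all genes, 5.16% rose with enzyme, and 4.34% rose and 3.77% fell untreated. On day 4.5, 10 of the 19 were lower with enzyme and 1 higher, with a median log2 difference of -0.90, beside 3.1% of all genes lower. On day 7.5, FN1 and GPC3 were higher with enzyme and 5 genes were lower: COL4A1, COL4A2, COL18A1, LAMB1 and HSPG2, which encode parts of the basement membrane. The median was then -0.27, beside 2.49% of all genes lower. Against untreated day 4.5, 8 were lower and 2 higher, with a median of -0.59, beside 3.22% of all genes lower. COL4A1 stood at 13.9, 17.3 and 13.9 CPM with enzyme and 73.2, 58.1 and 102 CPM untreated (-2.47 ± 0.35, adjusted p = 0.0001254, edgeR). LAMB1 stood at 35.9, 94.2 and 59.2 CPM against 184, 276 and 177 CPM (-1.88 ± 0.22, adjusted p = 1.597e-05). COL4A1 and COL4A2 lie head to head on opposite strands. The count of 5 risers was 1 without the day 4.5 enzyme library of line TNNI1, 2 without that of line TNNT2, 3, 2 and 2 without the day 7.5 library of line TNNI1, WT and TNNT2, 3 without the line block and 3 when only the compared libraries were fitted. The count of 5 lower on day 7.5 was 3 without line TNNI1 or line TNNT2. The count of 10 on day 4.5 was 5 without the enzyme library of line TNNI1 or TNNT2 or the untreated library of line TNNT2. It was 6 without the untreated library of line TNNI1. The count of 8 was 5 when only the compared libraries were fitted and 2 without line TNNT2.

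The change between the days differed from the untreated one for 10 genes (0.0784% of those tested), 7 in the positive direction (0.0549%) and 3 in the negative direction (0.0235%). At an unadjusted p below 0.05 there were 1169, and DESeq2 called 82. Without the line block 2 remained, A2M and TUNAR. The count was 75 without the day 4.5 enzyme library of line WT, 38 without the day 7.5 untreated library of line WT, 6 without the day 4.5 enzyme library of line TNNT2 and 5 without the untreated library of that line and day. It was 0 without line TNNI1, 48 without line WT and 1 without line TNNT2. No gene of the sarcomere, calcium, natriuretic or mitosis lists was among the 10, although the sarcomere median of this difference was 1.21 and the mitosis median -1.36, against 0.04 over all genes.

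CCDC80 (chromosome 3, 112596794 to 112649530, minus strand), a secreted matrix protein, stood at 158, 371 and 243 CPM and then at 387, 625 and 507 CPM with enzyme. Untreated cardioids went the other way, from 682, 1300.1 and 1442 CPM to 242, 595 and 441 CPM. The rise of 1.11 ± 0.22 (adjusted p = 0.001596) and the untreated fall of -1.31 ± 0.21 (adjusted p = 0.0005315) differed by 2.42 ± 0.30 (adjusted p = 0.0004236, edgeR). Groups that were apart on day 4.5 overlapped on day 7.5, with a difference of 0.19 there (adjusted p = 0.6911). Without the block the difference of the steps gave an adjusted p of 0.13.

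COL6A1, a chain of type VI collagen, crossed in the same way, from 189, 649 and 376 CPM to 390.4, 689 and 572 CPM with enzyme and from 736, 1196 and 1171 CPM to 369, 638 and 527 CPM untreated (difference of steps 1.51 ± 0.26, adjusted p = 0.0132, edgeR, and 0.44 without the block). CASZ1 (chromosome 1, 10636604 to 10796650, minus strand), a zinc-finger factor of heart development, went from 5.59, 24.2 and 12.2 CPM to 95.4, 83.4 and 88.5 CPM with enzyme. Its untreated values were 143, 131 and 76.5 CPM and then 112, 158 and 156 CPM, and the steps differed by 2.45 ± 0.45 (adjusted p = 0.0171, and 0.096 without the block). On day 7.5 CASZ1 was still below the untreated libraries without overlap, by a difference of -0.77 ± 0.29 that did not pass (adjusted p = 0.1464).

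A2M (chromosome 12, 9067664 to 9116229, minus strand), the protease inhibitor alpha-2-macroglobulin, had no read in the enzyme libraries of day 4.5 and 18.7, 25.9 and 16 CPM on day 7.5, at least 9.78-fold higher (adjusted p = 2.634e-05, edgeR). Untreated cardioids held 21.2, 24.9 and 8.35 CPM and then 23.2, 31.9 and 20.8 CPM, which overlap the enzyme libraries of day 7.5. The steps differed with an adjusted p of 0.00858. ARHGDIB, a regulator of small GTPases, passed the untreated level: 2.48, 8.64 and 6.4 CPM and then 19.6, 33.8 and 40.4 CPM with enzyme, against 9.55, 15.1 and 34.1 CPM and then 6.25, 14 and 9.64 CPM untreated. Its steps differed by 3.34 ± 0.58 (adjusted p = 0.0132, and 0.14 without the block). HAPLN1 was the next of the 7, with 1.76 ± 0.29 between its steps (adjusted p = 0.00858, and 0.080 without the block).

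The change was lower with enzyme for 3 genes. TUNAR (chromosome 14, 95876392 to 95925571, plus strand), named as an RNA linked to neural differentiation, stood at 72.6, 19 and 23.3 CPM and then at 2.45, 3.6 and 2.79 CPM with enzyme, against 4.78, 1.78 and 2.78 CPM and then 7.14, 10.2 and 6.68 CPM untreated (difference of steps -4.95 ± 0.81, adjusted p = 0.00858, edgeR). SIPA1L1, a Rap GTPase-activating protein, stood at 42.2, 30.2 and 44.2 CPM and then 34.2, 37.4 and 29.3 CPM with enzyme, while it rose untreated from 39.6, 27.5 and 19.5 CPM to 108, 81.7 and 101 CPM (-1.99 ± 0.36, adjusted p = 0.01441, and 0.080 without the block). NCAM1, a cell adhesion molecule, stood at 494, 573 and 399 CPM and then at 399, 546 and 415 CPM with enzyme and rose untreated from 262, 344 and 279 CPM to 671, 698 and 642 CPM (-1.34 ± 0.24, adjusted p = 0.01441, and 0.096 without the block). FTL, the light chain of the iron store ferritin, was named after its values were seen, as it had a change under the size the naming rule asks for: 928, 1380.2 and 1365 CPM and then 1086, 1153 and 1110.4 CPM with enzyme, against a fall untreated from 951, 1317 and 1289 CPM to 461, 509.9 and 513 CPM (1.10 ± 0.20, adjusted p = 0.0171).

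**Figure D4:**
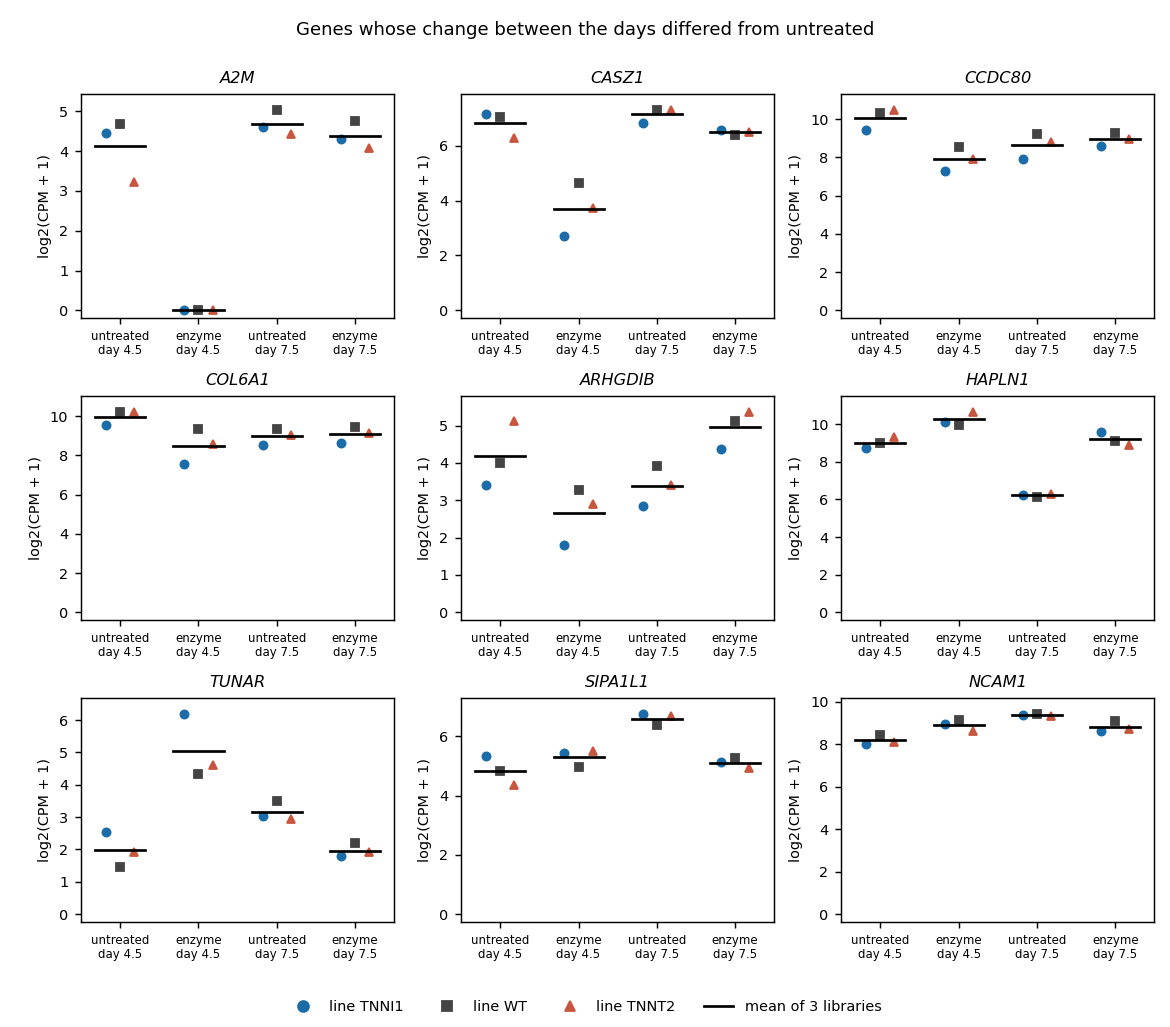
Levels of 9 genes whose change between day 4.5 and day 7.5 differed from the untreated change, as log2(CPM + 1) on the y axis, in each library. Points are libraries by line and bars are means of 3; CCDC80 and COL6A1 rose with enzyme and fell untreated, and A2M went from 0 in all 3 enzyme libraries to 16 to 25.9 CPM.

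The late course, with hyaluronidase from day 2.5, called 385 genes between the days (3.02%), 251 higher (1.97%) and 134 lower (1.05%). Its step differed from the early one for 2 genes (0.0157%), 1 in each direction (0.00784%), and for 661 at an unadjusted p below 0.05, while DESeq2 called 10. The count of 2 was 21 without the day 4.5 early-course library of line WT, 4 without the day 7.5 library of that line, 1 without the day 4.5 library of line TNNI1, and 0 without the day 4.5 library of line TNNT2, the day 7.5 library of line TNNI1, or the line block. These genes were named after their values were seen. CCDC80 rose in the early course and stood at 668, 1118 and 956 CPM and then at 392, 605 and 514 CPM in the late course (difference of steps 1.86 ± 0.30, adjusted p = 0.01499, edgeR). DMD, dystrophin, stood at 8.07, 14.7 and 14.6 CPM and then at 43.2, 28.8 and 52.3 CPM in the early course, and at 3.59, 0.781 and 1.28 CPM and then 80.3, 34.9 and 82.5 CPM in the late course (-3.33 ± 0.54, adjusted p = 0.01499). Untreated cardioids of day 7.5 held 209, 169.8 and 231 CPM of DMD, above both enzyme courses.

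Most genes called with enzyme between the days had a change of the same sign untreated, and the 2 courses share no library. Of the 658 genes that rose with enzyme, 238 also rose untreated, which is 36.2% of the former and 43.0% of the untreated risers. Of the 553 that fell, 146 also fell untreated, which is 26.4% and 30.4%. Over all genes, 4.34% rose and 3.77% fell untreated. The fitted change had the same sign in untreated cardioids for 603 (91.6%) of the risers and 511 (92.4%) of the fallers, and 2 genes, CCDC80 and COL6A1, were called in opposite directions. The count of 1211 genes called with enzyme was 540 without the day 4.5 library of line TNNI1, 753 without that of line TNNT2 and 758 without the day 7.5 library of line TNNT2. The count of 1033 untreated was 361 and 325 without the day 4.5 library of line WT and TNNT2, and 355, 2166 and 374 without the day 7.5 library of line TNNI1, WT and TNNT2.

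Individual genes of the enzyme step with the largest fitted changes were mostly near 0 on one of the days, where a fitted fold depends on the prior count. Among the 12 named risers, MYL3, MYL7, MYOM1 and A2M are given above. LIPH, a phospholipase, had no read on day 4.5 and 9.78, 9.35 and 9.06 CPM on day 7.5, at least 4.55-fold higher, and MOXD1, a monooxygenase-like protein, reached 19.6, 4.31 and 7.67 CPM from 0, at least 5.09-fold higher, or 2.76-fold without line TNNI1. GPR183 and FBXL22, a lipid receptor and an F-box protein of the heart, rose at least 2.85-fold and at least 2.38-fold from 0. The MOXD1 and FBXL22 calls were lost without the day 4.5 library of line TNNI1 (adjusted p = 0.072 and 0.058). FBXL22 ended at 4.89, 2.88 and 6.97 CPM, against 83.9, 47.2 and 51.2 CPM untreated on day 7.5. SERPINI1, the serpin neuroserpin, rose from 1.24, 0.864 and 2.33 CPM to 31, 73.3 and 89.2 CPM (5.32 ± 0.57, adjusted p = 4.065e-06, edgeR). Count ratios were 105.2 (exact counting interval 18.4 to 4198) for SORCS3, 50.2 (16.8 to 246.4) for the matrix protein POSTN, which reached 28.5, 14.4 and 56.5 CPM, and 55.9 (15.1 to 468) for TMEM176B.

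The named genes that fell had little or no signal on day 7.5. CYP26A1, the enzyme that breaks down retinoic acid, stood at 8.69, 11.2 and 6.4 CPM on day 4.5 and had no read on day 7.5, at least 3.93-fold lower. Others without a read on day 7.5 fell at least 3.42-fold (SAMD3), 2.90-fold (MAGEB3), 2.84-fold (ITIH5), 2.35-fold (NTN4) and 2.22-fold (ESRP1). SAMD3, ITIH5 and NTN4 came mainly from line TNNI1, at 21.7, 15.5 and 14.3 CPM on day 4.5, and together with ESRP1 they lost the call without that library. For SAMD3, ITIH5 and NTN4 the bound fell below 1 without line TNNI1. Count ratios were 69.5 (12.1 to 2782) for the nuclear receptor NR0B1, 55.1 (9.52 to 2211) for CD52 and 46.1 (7.90 to 1855) for FOXA2, a forkhead factor of endoderm and midline. The FOXA2 and ESRP1 calls were also lost without the line block (adjusted p = 0.090 and 0.070).

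Which differences of day 4.5 were still called on day 7.5 was counted over all genes, and the smaller gap of genes chosen by the day 4.5 gap is a description. Of 395 genes lower with enzyme on day 4.5, 126 (31.9%) were lower on day 7.5. Another 4 (CCDC80, CASZ1, COL6A1 and A2M) were no longer called and had a step that differed from untreated, 1 (ARHGDIB) was called in the opposite direction and 264 were undecided, that is neither called on day 7.5 nor called in the difference of steps. On day 7.5 the fitted difference had the same sign for 358 of the 395. Their median difference went from -1.57 to -0.82 on the log2 scale. Of 190 genes higher with enzyme on day 4.5 (1.49% of all), 74 (38.9%) were higher on day 7.5, 1 (TUNAR) was closed in the same sense, 1 (NCAM1) was called in the opposite direction and 114 were undecided. The sign was the same on day 7.5 for 178 of the 190, with a median that went from 1.598 to 1.122, or from 1.57 to 0.99 with genes at 0 set to their bound. The gap of day 4.5, the enzyme step and the difference of steps share the enzyme libraries of day 4.5.

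Most genes called on day 7.5 had not been called on day 4.5, although most had the same sign there. Of 246 genes higher with enzyme on day 7.5 (1.93% of all), 74 (30.1%) had been higher on day 4.5, and of 318 lower, 126 (39.6%) had been lower. The fitted difference of day 4.5 had the same sign for 208 of the 246 and 272 of the 318. HPSE2, a heparanase-like protein without heparanase activity, had no read untreated on day 7.5 and 13, 11.5 and 5.58 CPM with enzyme, at least 4.42-fold higher. ATP8B4 and LHFPL1 were at least 2.62-fold and 2.03-fold higher in the same way. RPH3A, a vesicle protein, stood at 103, 12.1 and 158 CPM and then at 55.4, 14.4 and 148 CPM with enzyme, against 1.78, 0.638 and 4.45 CPM untreated on day 7.5 (4.65 ± 0.67, adjusted p = 0.0001749, edgeR). B3GAT2, which overlaps SMAP1 on the other strand, had a count ratio of 55.8 (18.8 to 273.2), and SOCS3, a feedback inhibitor of cytokine signalling, one of 46.8 (12.6 to 392.2). The SOCS3 call was lost without each of 5 single libraries, and those of HPSE2, LHFPL1 and ATP8B4 without 1 or more.

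Among genes lower on day 7.5 by the naming rule, NPPA, NPPB, ANKRD1 and CAVIN1 are given above. SYTL5, a vesicle transport protein, had no read with enzyme on day 7.5 and 17.8, 24.9 and 22.3 CPM untreated, at least 9.71-fold lower, and it was at least 11.3-fold lower than untreated on day 4.5. AFP, the alpha-fetoprotein of yolk sac and fetal liver, had no read with enzyme and 83.9, 18.5 and 9.64 CPM untreated, at least 16.7-fold lower, or 6.63-fold without line TNNI1. Its call was lost with DESeq2 (adjusted p = 0.14) and without line TNNI1 (adjusted p = 0.0575, edgeR). APOB, an apolipoprotein of the same tissues, stood at 6.52, 0 and 5.58 CPM against 215, 23 and 42.3 CPM (-4.32 ± 0.54, adjusted p = 3.778e-05, edgeR). The summed endoderm and liver list was 73.3, 46.0 and 105.3 CPM with enzyme and 617.5, 138.5 and 207 CPM untreated on day 7.5, with 7 of its 18 genes at 0 in all 3 enzyme libraries. In the late course the list summed to 89.97, 48.31 and 80.55 CPM on day 7.5, with 10 of its 18 genes at 0. The part of this list in these results was not tested.

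The count of 585 genes that differed on day 4.5 was 269 without the enzyme library of line TNNI1, 267 without that of line TNNT2, 247 without the untreated library of line TNNI1 and 349 without that of line TNNT2. The count of 564 on day 7.5 was 209 without the enzyme library of line TNNI1, 330 without the untreated library of line TNNI1 and 323 without that of line TNNT2. The count of 735 between enzyme day 7.5 and untreated day 4.5 was 442 without the enzyme library of line TNNT2, 430 without the untreated library of line WT and 368 without that of line TNNT2. In that last comparison the named genes above untreated day 4.5 were B3GAT2 (count ratio 83.5, 22.8 to 695.3), UBE2QL1 (67.6, 11.7 to 2709), DISP3 (at least 2.13-fold) and PLSCR5 (at least 1.99-fold). Those below included SYTL5, NPPB (at least 6.58-fold) and CYP26A1 (at least 4.06-fold). Without line TNNI1 the bounds were 3.62-fold for NPPB and 2.70-fold for CYP26A1, and without line TNNT2 it was 1.24-fold for PLSCR5. The DISP3, PLSCR5 and NPPB calls were lost without 1 or more single libraries.

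A separate set of WT libraries from the study's genotype arm gave lists of genes that change without enzyme, the first 2 of them limited to the 200 largest changes. Of 182 tested genes that rose there from day 2.5 to day 4.5, 95 rose and 1 (COL8A1) fell with enzyme between day 4.5 and day 7.5, with a median of 1.85, or 1.81 with genes at 0 set to their bound. Untreated, 43 rose and 3 fell (KCNIP4, NPY1R and THBS4), with a median of 0.91. Over all genes, 5.16% rose with enzyme and 4.34% untreated. On day 4.5, 81 of the 182 were lower with enzyme and 1 (COL8A1) higher, and on day 7.5, 37 were lower and 5 higher (KCNIP4, LRRN3, NPY1R, NPY5R and RERG). Over all genes, 3.1% and 2.49% were lower on these days. Against untreated day 4.5, 16 were higher and 10 lower, with a median of 0.01, beside 2.55% and 3.22% of all genes. The mean of the 182 was 5.08, 5.23 and 5.00 log2 CPM with enzyme on day 7.5 and 5.63, 4.88 and 4.82 untreated on day 4.5, which overlap.

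The 166 tested genes that fell from day 2.5 to day 4.5 in those WT libraries gave 49 that fell and 1 that rose (LOXL4) with enzyme between the days, against 5 that fell untreated, among them NTS, RGS2 and SERPINE2. Over all genes, 4.34% fell with enzyme and 3.77% untreated. Their mean on day 4.5 with enzyme was 3.70 log2 CPM in line TNNI1, 2.27 in line WT and 2.55 in line TNNT2, and on day 7.5 it was 1.95, 1.66 and 1.82, beside 1.85, 1.64 and 1.97 untreated. On day 7.5, 1 of the 166 (STC1) was lower and none higher, beside 2.49% and 1.93% of all genes. Without the day 4.5 enzyme library of line TNNI1 the 49 became 20 and the 95 became 57; without the day 7.5 library of line TNNI1 or TNNT2 the 49 became 31, and without the day 4.5 library of line TNNT2 the 95 became 61. Without the same day 4.5 libraries of line TNNI1 and TNNT2 the 81 became 43 and 39, and without the untreated library of line TNNI1 it became 35. The 37 became 10 and 22 without the day 7.5 enzyme library of line TNNI1 and WT, and 18 without the untreated library of line TNNT2, and rose to 68 with no filter. Fits of only the compared libraries gave 21 lower on day 4.5 and 70 on day 7.5, the opposite order of the days. They gave 22 in place of the 49. Without line TNNT2 altogether the 95 became 33, the 49 became 16, the 81 became 20 and the 37 became 4.

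Genes that change from day 4.5 to day 7.5 in the WT libraries were followed in the same way. Of 137 that rose there, 67 rose and none fell with enzyme (median 1.31), against 80 and none untreated (median 1.46), and on day 7.5, 35 of them were lower with enzyme and 1 (TIMP3) higher. Of 133 that fell there, 62 fell and none rose with enzyme (median -1.03), against 65 and none untreated (median -1.13). Over all genes, 5.16% rose and 4.34% fell with enzyme, 4.34% rose and 3.77% fell untreated, and 2.49% were lower on day 7.5. The mean of these 133 was 4.99, 4.91 and 5.08 log2 CPM with enzyme on day 7.5 and 4.72, 4.86 and 5.00 untreated on that day, after 6.11, 5.91 and 6.07 with enzyme and 5.99, 6.09 and 6.14 untreated on day 4.5. Against untreated day 4.5, 63 of the 133 were lower in the day 7.5 enzyme cardioids and 1 (STMN3) higher, beside 3.22% of all genes lower. Without the day 4.5 enzyme library of line TNNI1 the 67 became 43 and the 62 became 39. Without line TNNT2 altogether they became 29 and 28.

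**Figure D5:**
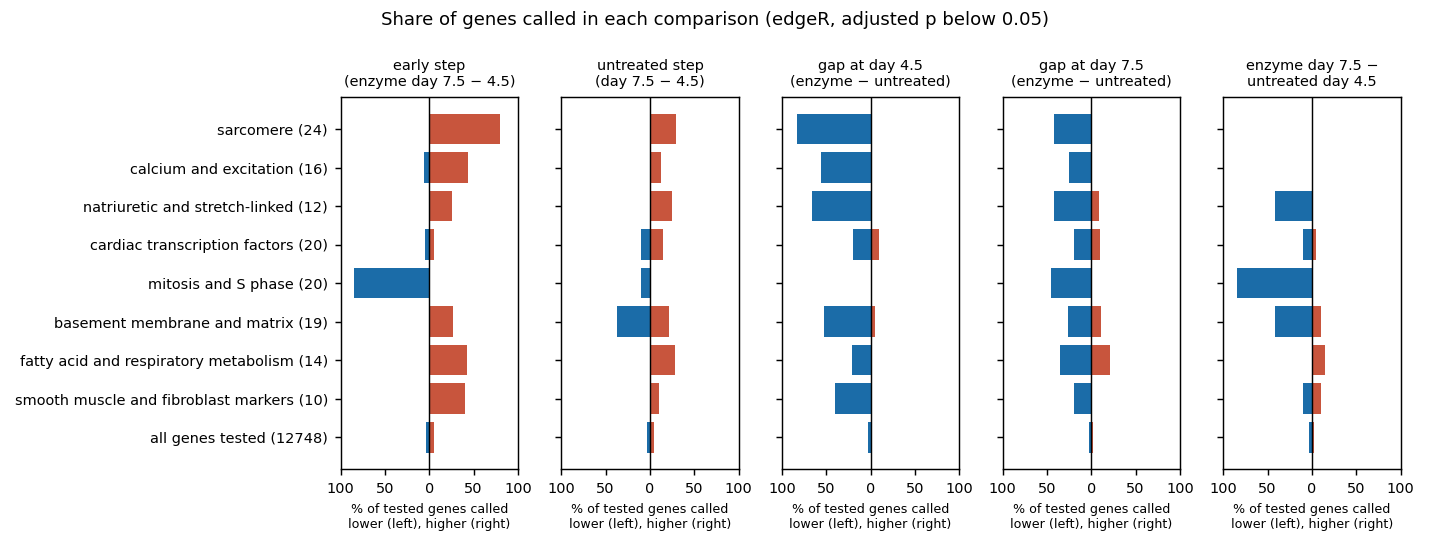
Share of tested genes of 8 lists, and of all 12748 genes, called lower (left) or higher (right) in 5 comparisons, on an x axis in percent of the genes tested. Bars are shares and carry no error bar; the sarcomere bar reaches 19 of 24 genes in the enzyme step and is empty in the last panel, where the mitosis bar shows 17 of 20 genes lower.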

How the data were processed

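Libraries were made with a 3′ end kit (QuantSeq 3′ FWD) from 8 pooled cardioids each and read single-end, per the labels' protocols. The authors deposited raw read counts per gene, with no normalization. The submitters' processing notes name featureCounts of Subread 1.6.2 and the builds hg38 and GRCh38, while the aligner, the strand setting and the treatment of multiply mapped reads are not given in the sources used here. All 58735 gene IDs were found in GENCODE 29, and 58207 had a symbol. Another 4 columns of the table belong to none of the samples listed and were left out.

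Counts were tested with edgeR 4.0.16 in R 4.3.3 (filterByExpr with a minimum count of 10, TMM, robust quasi-likelihood fit) over the 24 libraries of the enzyme arm, with group and line as terms, and Benjamini-Hochberg adjusted p below 0.05 over 12748 genes was a call. Libraries of the same number share a line, which is why line was a block. The correlation of their deviations between days was 0.041, 0.195 and 0.161 with enzyme and 0.225, 0.179 and 0.109 untreated (lines TNNI1, WT, TNNT2). Each group held 1 library per line. With line as a term, p-values measure the spread left after the mean differences between lines are removed, estimated over all 24 libraries. Replicates of a group differed by 2.86 to 16.4 times the sampling noise (chi-square per degree of freedom), so none was counted as a duplicate.

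CPM are the deposited counts of a gene scaled to 1000000 reads of its library. List means of log2 CPM used TMM scaling and a prior count of 2. Where a group had no read, a fold is a bound computed from 3 counts per library, and where it had 1 to 3 in all, a count ratio with an exact counting interval is given, which covers counting error only. Genes were named by a rule: protein-coding, called, a log2 change of at least 1, the same sign in every line, and the largest fitted changes (12 in each direction for the enzyme step, 6 for the difference of steps and for day 7.5, 4 for enzyme day 7.5 against untreated day 4.5). List members could be named within their list. A few genes that the rule or a list would name are not reported here. The libraries and gene lists were chosen with earlier results of these data known. Alternatives were a fit without the block, edgeR with relative log expression (RLE) size factors in place of TMM, no filter on low counts, DESeq2 1.42.0, a fit of only the compared libraries, and leaving out each library or line. List counts under these settings were added after seeing the data. The fits were tested on simulated data.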

Additional observations from a re-analysis of the deposited data

Results flagged for a closer look

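The change between day 4.5 and day 7.5 was tested for a difference from the untreated change, and 10 genes passed (edgeR, adjusted p below 0.05). On the log2 scale these differences were 2.42 for CCDC80, 1.76 for HAPLN1, 1.51 for COL6A1, 3.34 for ARHGDIB, 2.45 for CASZ1 and 1.10 for FTL, all in the positive direction, and -4.95 for TUNAR, -1.99 for SIPA1L1 and -1.34 for NCAM1 in the negative direction. A2M had a fitted difference of 7.15, which depends on the prior count because it had no read in the enzyme libraries of day 4.5. Without the line block A2M and TUNAR alone passed.

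Against the late enzyme course the same test passed for 2 genes, with differences of 1.86 for CCDC80 and -3.33 for DMD. CCDC80 therefore differed from both other courses, and both of these calls were lost without the line block (adjusted p = 0.83 and 0.17, edgeR).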

How the results depend on the processing

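Lines carry the replicate numbers, so the main fit holds them as a block. Without the replicate block the late step had 246 calls, the difference between the early and untreated steps 2 and that between the early and late steps 0. The other 5 counts stayed within 1.5 times of the values reported, and 43 of the 55 named results kept their call. RLE size factors in edgeR moved no count by that much and kept all 55, but split the untreated step into 625 higher and 430 lower in place of 553 and 480, and the day 7.5 gap into 215 and 338 in place of 246 and 318. With no filter on low counts there were 1709 calls in the untreated step, 691 in the late step, 248 and 71 in the differences from the untreated and late steps, 964 in the day 7.5 gap and 1111 between enzyme day 7.5 and untreated day 4.5. DESeq2 gave 82 and 10 for the differences of steps. Fits of only the compared libraries gave 658 for the enzyme step, 1658 for the late step, 3 and 1 for the differences of steps, 290 for the day 4.5 gap and 449 between enzyme day 7.5 and untreated day 4.5.

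Leaving out 1 library or line gave 333 to 1282 calls for the enzyme step, 90 to 2166 for the untreated step, 23 to 233 for the late step, 0 to 75 and 0 to 21 for the differences of steps, 126 to 601 for the day 4.5 gap, 119 to 786 for the day 7.5 gap and 165 to 652 between enzyme day 7.5 and untreated day 4.5. No named result reversed its direction under these settings. The sarcomere median between enzyme day 7.5 and untreated day 4.5 ranged from -0.59 to 0.24 and the basement membrane median of the enzyme step from -0.08 to 0.19, so both changed sign. Without the day 4.5 enzyme library of line TNNI1 the sarcomere median of the enzyme step was 2.08. The main limits are the single library per line and day, 1120719 to 1718211 counted reads each, and the fit's reliance on lines TNNI1 and TNNT2 for most counts.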

Other observations

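Of 14 tested genes of fatty acid and respiratory metabolism, 6 rose with enzyme between day 4.5 and day 7.5 (CKM, CPT1A, FABP3, HADHA, MB and SLC25A4) and none fell, with a median log2 change of 0.87, beside 5.16% of all genes that rose. Untreated, 4 rose (CKM, COX6A2, CPT1A and MB) and none fell, with a median of 0.23, beside 4.34% of all genes that rose. The enzyme count of 6 was 4 without the day 4.5 library of line TNNI1 and 2 without line TNNT2 altogether. CPT1A, the gatekeeper of mitochondrial fatty acid import, went from 1.86, 6.05 and 4.66 CPM to 24.5, 65.4 and 47.4 CPM (3.52 ± 0.46, adjusted p = 3.244e-05, edgeR) and passed the untreated 7.14, 24.9 and 8.16 CPM of day 7.5 (1.71 ± 0.41, adjusted p = 0.01378). Its ranges overlapped, since line TNNI1 with enzyme lay just below line WT untreated. CKM, the muscle creatine kinase, reached 13, 20.1 and 27.9 CPM and stayed below the untreated 91.9, 75.9 and 133 CPM, and MB, FABP3, SLC25A4 and COX6A2 were lower on day 7.5 as well, while ESRRG and ACADVL were higher.

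Of 10 tested smooth muscle and fibroblast markers, 4 rose with enzyme between the days (ACTA2, CNN1, LMOD1 and POSTN), with a median of 0.77, beside 5.16% of all genes that rose. In the untreated course 1 rose (POSTN), with a median of 0.68, and in the late course 5 rose, with a median of 1.38. Over all genes, 4.34% rose in the untreated course and 1.97% in the late one. ACTA2, smooth muscle actin and an early cardiomyocyte gene, went from 9.93, 47.5 and 21.5 CPM to 385, 582 and 496 CPM (4.35 ± 0.58, adjusted p = 0.0002062, edgeR), against 549.6, 1137 and 619 CPM untreated on day 7.5. It overlaps FAS and STAMBPL1 on the other strand. The count of 4 was 2 without the day 4.5 library of line TNNI1 or TNNT2 or the day 7.5 library of line TNNT2. The defining marker MYH11 had no read in any of the 6 enzyme libraries. Its untreated level on day 7.5 was near the floor too, with a bound of 1.29-fold, or 0.91 without line TNNT2. The absence of reads therefore does not separate the courses.

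Endothelial markers summed to 99.3, 146.1 and 146.7 CPM on day 4.5 and 111.7, 202.1 and 230.7 CPM on day 7.5 with enzyme, beside 85.7, 114.2 and 193.6 CPM untreated on day 7.5. EMCN, an endothelial sialomucin, was the 1 of 10 tested that rose (3.72 ± 0.88, adjusted p = 0.008808, edgeR), beside 5.16% of all genes. NPR3, a clearance receptor of endocardium, was higher with enzyme on day 7.5 (1.86 ± 0.37, adjusted p = 0.003699). Epicardial markers summed to 562.3, 250.6 and 292.7 CPM on day 4.5 and 123.9, 118.6 and 134.5 CPM on day 7.5 with enzyme, and KRT19 fell (-1.86 ± 0.34, adjusted p = 0.001532). The epicardial sum also fell untreated, from 325.5, 276.2 and 430.5 CPM to 209.7, 177.4 and 253 CPM. Atrial and second heart field markers summed to 80.3 to 83.8 CPM and then 45.3 to 52.2 CPM with enzyme. Untreated, they summed to 49.14, 72.82 and 148.8 CPM and then 63.35, 86.15 and 77.15 CPM. LIN28A, an RNA-binding protein of pluripotent and early embryonic cells, fell from 210.4, 179 and 200.2 CPM to 18.7, 26.6 and 19.5 CPM with enzyme (-3.08 ± 0.24, adjusted p = 3.418e-08), beside 47.3, 26.2 and 26 CPM untreated on day 7.5, a range that overlaps it.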
